A study of Mus musculus with 10 samples.

Results

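The genes described are 10 members of the vascular endothelial growth factor (VEGF) system, taken by gene name from a deposited table of 46603 genes: the ligand genes Vegfa, Vegfb, Vegfc and Pgf, the receptor genes Flt1, Kdr and Flt4, the neuropilin genes Nrp1 and Nrp2, and Ccbe1. They were measured by RNA sequencing in macrophages sorted from tumours of 4T1, a mouse mammary carcinoma cell line. Viable cells carrying CD11B and F4/80 were split by podoplanin (PDPN), a surface glycoprotein typical of lymphatic vessels, into PDPN-positive cells (PoEMs) and PDPN-negative cells (non-PoEMs). Both fractions were sequenced from each of 5 tumours, numbered 1, 2, 4, 5 and 6, so each group holds 5 libraries. The strain, sex and age of the mice are not given in the labels, nor is it stated whether each tumour came from a separate mouse. P-values of comparisons within tumours therefore refer to variation of the difference between the fractions over these tumours. The study was aimed at the part of PDPN-positive tumour macrophages in lymphatic vessel growth and matrix remodelling.

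VEGF ligands are secreted dimers that act on receptor tyrosine kinases of endothelial cells. VEGF-A binds VEGFR1 (Flt1) and VEGFR2 (Kdr), VEGF-B and placental growth factor (Pgf) bind VEGFR1, and VEGF-C and VEGF-D bind VEGFR3 (Flt4), the main receptor of lymphatic endothelium. Neuropilins are co-receptors for VEGF ligands and class 3 semaphorins, and Nrp2 is linked above all to VEGF-C and lymphatic vessels. CCBE1 is a secreted protein that promotes the cleavage of VEGF-C to its active form. Tumour macrophages are a known source of VEGF-A.

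Library totals ran from 12597829 to 15406722 counts, so that 1 count was worth 0.0649 to 0.0794 CPM (counts scaled to library size). Pdpn, the sort marker, averaged 214.5 ± 22.9 CPM in PoEMs and 19.3 ± 7.33 CPM in non-PoEMs (SD, n = 5 each). The libraries carried macrophage markers at high levels. The 8 genes fixed for this purpose summed to 13800 to 17080 CPM in PoEMs and 13680 to 16200 CPM in non-PoEMs. Calls are those of the test in the next paragraph, which called 13.8% of all tested genes higher and 14.3% lower in PoEMs. Of the 8 macrophage markers, Itgam and Cd68 were called higher and Csf1r and Ptprc lower. Their log2 fold changes were 0.23, 0.23, -0.25 and -0.33. Without the tumour as a block, 1 was called higher and 2 lower. Fibroblast markers were higher in PoEMs for 11 of 12 genes, and their sum was 301.9 to 495.2 CPM against 31.8 to 45.4 CPM in non-PoEMs. Eosinophil markers were lower for 4 of 4 tested genes (sum 4.30 to 12.6 CPM against 57.2 to 141.3 CPM in non-PoEMs), as were neutrophil markers for 6 of 6 (96.3 to 130.8 CPM against 208.0 to 286.9 CPM in non-PoEMs). Monocyte markers were lower for 3 of 5 (1263 to 1502 CPM against 1383 to 2186 CPM in non-PoEMs), and for 2 without the block. Of 7 tested epithelial markers, which tumour cells express, 1 (Cdh1) was higher and 2 (Epcam and Krt8) were lower in PoEMs. None was called without the block, and the median log2 fold change was -0.23. The epithelial sum was 95.3 to 257.4 CPM against 79.4 to 210.4 CPM in non-PoEMs. On average most of it came from Cdh1, with means of 124.0 CPM in PoEMs and 75.9 CPM in non-PoEMs, so the sum mainly follows this gene. Krt18 averaged 17.6 CPM in PoEMs and 20.4 CPM in non-PoEMs, and Epcam 2.14 and 3.32 CPM. The part of these cell type markers in the results below was not tested.

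Within each tumour, PoEMs held more Vegfb and Nrp2 RNA and less Flt1 RNA than non-PoEMs, while Vegfa, by far the most abundant ligand, did not pass the test. Of the 10 genes, 9 had enough counts for the test across all genes and Vegfc did not. The test was edgeR's quasi-likelihood test with the tumour as a block, which compares the fractions within each tumour. Its p-values draw on the spread of all genes tested as well as that of the gene itself. The threshold was an adjusted p (Benjamini-Hochberg, over all 13595 genes tested) under 0.05. The test called 2 of the 9 higher and 1 lower in PoEMs. Across all tested genes 28.2% were called, 13.8% higher and 14.3% lower, so the members' share of 33.3% is close to the background. The median log2 fold change was 0.16 over the 9 genes and 0.01 over all genes tested. Without the tumour as a block, where 13.6% of genes were called, edgeR called 0 of the 9, and 4 had an unadjusted p under 0.05. DESeq2 with the block, which called 19.6% of all genes, called Vegfb, Nrp2 and Flt1 too. All 3 calls therefore rest on the comparison within tumours, in which each difference had the same sign in 5 of 5 tumours. A sign shared by all 5 tumours was found for 35% of all tested genes.

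**Figure D1:**
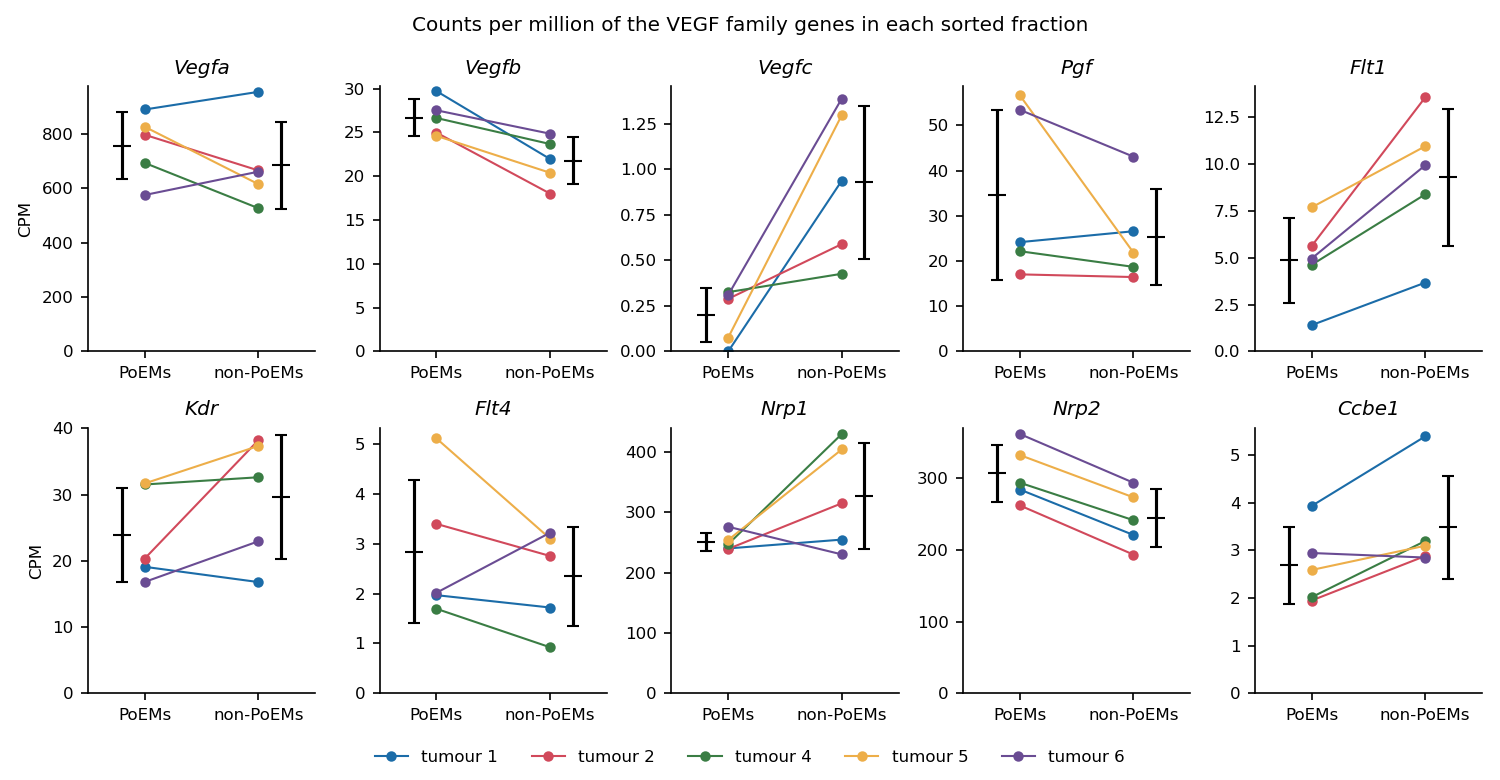
CPM of each gene in PoEMs (left) and non-PoEMs (right) of the same tumour, joined by a line per tumour; black bars at the sides show the mean ± SD of 5 libraries, and each panel has its own scale from 0. All 5 lines of Vegfb and Nrp2 lie higher at PoEMs, and all 5 lines of Flt1 and Vegfc lie lower at PoEMs.

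The promoters of the 3 called genes are shown because these genes passed the test. Sequences are from RefSeq (GRCm38.p6), which held 11 promoters for 9 of the members, each from 250 bases before to 50 bases after a transcription start, 300 bases in all. Vegfb lies at chr19:6987602-6987901 (minus strand), Nrp2 at chr1:62703067-62703366 (plus strand) and Flt1 at chr5:147725962-147726261 (minus strand). Capitals mark the core motif bound by hypoxia-inducible factors (HIF), searched as ACGTG and GCGTG on both strands, where overlapping matches share letters.
Vegfb: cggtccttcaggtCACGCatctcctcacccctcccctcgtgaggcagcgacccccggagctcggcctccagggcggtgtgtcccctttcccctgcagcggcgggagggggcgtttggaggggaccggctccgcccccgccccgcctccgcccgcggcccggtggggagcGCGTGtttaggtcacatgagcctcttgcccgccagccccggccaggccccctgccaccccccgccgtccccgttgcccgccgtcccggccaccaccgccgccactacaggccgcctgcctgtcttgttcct
Nrp2: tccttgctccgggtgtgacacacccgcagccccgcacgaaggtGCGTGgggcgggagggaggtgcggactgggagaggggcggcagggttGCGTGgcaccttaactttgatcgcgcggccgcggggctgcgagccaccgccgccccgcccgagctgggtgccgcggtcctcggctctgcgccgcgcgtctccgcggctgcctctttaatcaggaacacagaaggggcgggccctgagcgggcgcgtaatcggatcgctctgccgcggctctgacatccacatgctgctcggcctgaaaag
Flt1: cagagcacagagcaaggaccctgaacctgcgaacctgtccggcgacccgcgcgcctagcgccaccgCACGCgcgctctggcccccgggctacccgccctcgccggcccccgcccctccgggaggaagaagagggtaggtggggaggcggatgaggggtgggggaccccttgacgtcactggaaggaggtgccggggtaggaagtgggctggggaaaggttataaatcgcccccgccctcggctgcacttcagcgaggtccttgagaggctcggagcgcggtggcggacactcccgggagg
The HIF core stood in 7 of the members' 11 promoters (63.6%), against 43.8% of all 32851 promoters of this length. The GC box GGGCGG, searched on both strands, stood in 10 of the 11 (90.9%), against 35.7% of all promoters. The 3 promoters shown held 75.3% (Vegfb), 70.7% (Nrp2) and 70.7% (Flt1) G and C, above the median of 52.7% over all promoters, and GC-rich sequence holds such motifs more often. A match is a description of the letters and not a site of binding.

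Among the ligands, Vegfa (ENSMUSG00000023951, chromosome 17, 46016993 to 46032369, minus strand) encodes VEGF-A, the main growth factor of blood vessels. It measured 890.0, 797.0, 693.4, 826.3 and 575.4 CPM in PoEMs of tumours 1, 2, 4, 5 and 6, and 954.9, 665.9, 527.0, 615.5 and 661.2 CPM in non-PoEMs of the same tumours. PoEMs were higher in tumours 2, 4 and 5 and lower in tumours 1 and 6, and the groups overlapped. The mean was 756.4 ± 123.6 CPM in PoEMs and 684.9 ± 160.9 CPM in non-PoEMs (SD, n = 5 each). The fitted log2 difference was 0.16 ± 0.10 (SE, edgeR adjusted p = 0.2997). Without tumour 6 it was 0.24 (edgeR adjusted p = 0.0462), so the absence of a call depends on that tumour. It was 0.09 without tumour 4 or tumour 5 (edgeR adjusted p = 0.616 and 0.617).

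Vegfb (ENSMUSG00000024962, chromosome 19, 6982473 to 6987651, minus strand) encodes VEGF-B, a VEGFR1 ligand best known from heart and fat. It measured 29.7, 25.0, 26.7, 24.6 and 27.5 CPM in PoEMs of tumours 1, 2, 4, 5 and 6, and 22.0, 18.0, 23.7, 20.4 and 24.9 CPM in non-PoEMs. PoEMs were higher in every tumour, but the lowest PoEM value lay below the highest non-PoEM value. The fitted difference was 1.23-fold, or 0.30 ± 0.07 on the log2 scale (SE, edgeR adjusted p = 0.0062). Without the block the adjusted p was 0.05195. From bulk RNA of a sorted fraction, a change in the number of cells of a type and a change in RNA per cell cannot be told apart. Of the 8779 protein-coding genes whose log2 CPM averaged 3 or more, the 3 whose profile over the 10 libraries lay nearest to that of Vegfb were Wee1, Tuba1b and Hadh. Their root mean square distances were 0.0649, 0.0761 and 0.0812 on the log2 scale, against a spread of Vegfb about its own mean of 0.2004.

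Pgf (ENSMUSG00000004791, chromosome 12, 85166635 to 85177790, minus strand) encodes placental growth factor. It measured 24.2, 17.0, 22.2, 56.6 and 53.4 CPM in PoEMs of tumours 1, 2, 4, 5 and 6, and 26.6, 16.4, 18.7, 21.8 and 43.1 CPM in non-PoEMs. Tumour 6 was high in both fractions, whereas tumour 5 was high in PoEMs only. The log2 fold change, 0.39 ± 0.25 (SE, adjusted p = 0.324, edgeR), did not pass the test, and without tumour 5 it was 0.12.

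The VEGFR3 ligands were rare in both fractions, with fewer Vegfc counts and more VEGF-D counts in PoEMs. Vegfc (ENSMUSG00000031520, chromosome 8, 54077606 to 54187096, plus strand) had 0, 4, 5, 1 and 4 counts in PoEMs of tumours 1, 2, 4, 5 and 6, and 12, 9, 6, 18 and 19 counts in non-PoEMs. It was the only one of the 10 genes whose groups did not overlap in CPM. Groups without overlap were found for 10.5% of the tested genes and 6.75% of the 23973 genes with a count. It averaged 0.2002 ± 0.151 CPM in PoEMs and 0.928 ± 0.423 CPM in non-PoEMs (SD, n = 5 each). The 0 counts of tumour 1 allow up to 0.215 CPM, counting error only. The mean difference within tumours was -1.87 ± 1.33 on the log2(CPM + 0.1) scale (SD, n = 5, exact paired permutation test, two-sided p = 0.0625, the smallest that 5 pairs allow). Fitted by edgeR with no filter on low counts, where 16.3% of genes were called, the log2 fold change was -2.10 ± 0.48 (SE, adjusted p = 0.00109).

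VEGF-D, listed under its older name Figf, is no member but is the other ligand of VEGFR3, and is given here because its values stood out. It had 16, 7, 2, 6 and 1 counts in PoEMs of tumours 1, 2, 4, 5 and 6, and 3, 1, 0, 0 and 0 counts in non-PoEMs. In each tumour PoEMs held the higher CPM, although the values of the groups overlapped. Of the summed counts of Figf and Vegfc, Figf made up 32 of 46 in PoEMs, or 69.6% (exact binomial 95% interval 54.2 to 82.3%), and 4 of 68 in non-PoEMs, or 5.88% (1.63 to 14.4%). These intervals pool the tumours and treat each read as an independent draw. They leave out the spread between libraries and any copies made by pre-amplification, so they are too narrow to compare the fractions. This share was chosen after the values were seen, its difference was not tested, and 16 of the 32 Figf counts came from tumour 1. By library the share was 100%, 63.6%, 28.6%, 85.7% and 20% in PoEMs, and 20%, 10%, 0%, 0% and 0% in non-PoEMs, in the same order of tumours. Fibroblast markers were higher, and eosinophil, neutrophil and 3 of 5 monocyte markers lower, in the same PoEM libraries (sums given above). Their part in the values of Vegfc and Figf was not tested.

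**Figure D2:**
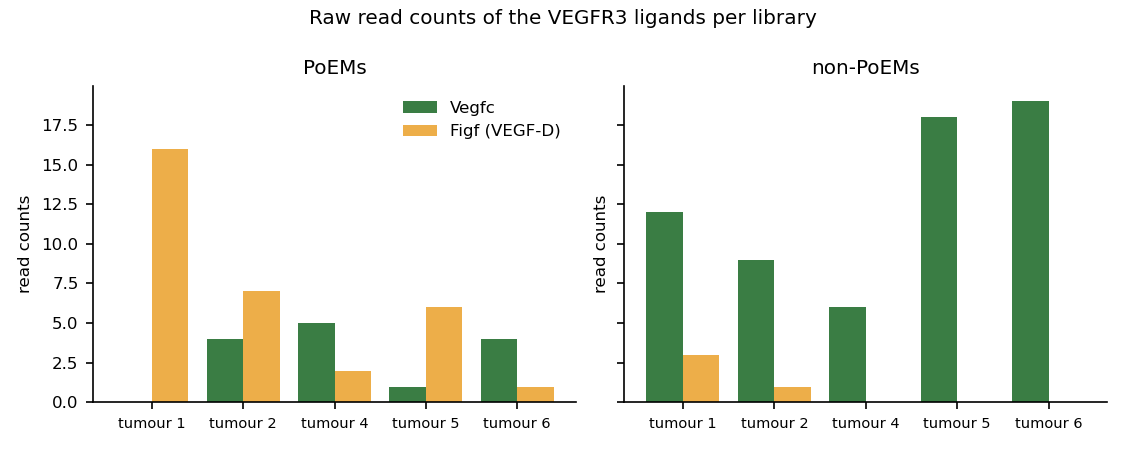
Raw read counts of Vegfc and of Figf, which encodes VEGF-D, in each library of PoEMs (left panel) and non-PoEMs (right panel). Vegfc had at most 5 counts in a PoEM library and at least 6 in a non-PoEM library, and Figf had at most 3 counts in a non-PoEM library.

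Ccbe1 (ENSMUSG00000046318, chromosome 18, 66045302 to 66302741, minus strand) had 56, 27, 31, 34 and 38 counts in PoEMs of tumours 1, 2, 4, 5 and 6, and 69, 44, 45, 43 and 39 counts in non-PoEMs. In CPM it was lower in PoEMs of 4 tumours and slightly higher in tumour 6, at 2.95 CPM in PoEMs against 2.85 CPM in non-PoEMs. The log2 fold change, -0.38 ± 0.16 (SE, adjusted p = 0.0961, edgeR), did not pass the test. An antisense gene shares 2.95% of its exon bases, and the sources used here do not give whether counting used strand. Of the 6 genes for proteases that cut VEGF-C or VEGF-D, 4 were tested, and 2 rose in PoEMs and none fell. Across all tested genes 13.8% were called higher. Below the filter, Adamts3 had 6 counts in PoEMs and 6 in non-PoEMs, and Pcsk5 had 93 and 5. Ctsd, which encodes cathepsin D, averaged 3048 ± 246.9 CPM in PoEMs and 1734 ± 131.1 CPM in non-PoEMs (SD, n = 5 each, log2 fold change 0.81, edgeR adjusted p = 5.6e-07). Furin, a proprotein convertase gene, averaged 653.6 ± 153.4 CPM in PoEMs and 438.6 ± 72.4 CPM in non-PoEMs (log2 fold change 0.56, adjusted p = 4.62e-06). Pcsk7 and Adamts14 had log2 fold changes of -0.08 and -0.13 and did not pass (edgeR adjusted p = 0.3045 and 0.799).

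All 3 receptor genes were detected in every library, at levels per kb of exon far below that of Vegfa. Flt1 (ENSMUSG00000029648, chromosome 5, 147561604 to 147726011, minus strand) encodes VEGFR1, which binds VEGF-A tightly but signals weakly and is also carried by monocytes and macrophages. It measured 1.41, 5.63, 4.63, 7.70 and 4.96 CPM in PoEMs of tumours 1, 2, 4, 5 and 6, and 3.67, 13.6, 8.39, 10.96 and 9.95 CPM in non-PoEMs. Tumour 1 was lowest in both fractions, and PoEMs held 0.382 to 0.702 times the level of non-PoEMs of the same tumour. The log2 fold change was -0.95 ± 0.13 (SE, edgeR adjusted p = 0.000113), and the adjusted p was 0.157 without the block. The nearest profiles were those of Plac8, Stx11 and Irf7, at root mean square distances of 0.352, 0.353 and 0.354 on the log2 scale, against a spread of Flt1 about its own mean of 0.8696. All 3 fell in PoEMs, with log2 fold changes of -1.39, -0.88 and -0.60. Plac8 is 1 of the 3 monocyte markers of 5 that were lower in PoEMs, but was not called without the block (edgeR adjusted p = 0.0506). F13a1 and Chil3, at log2 fold changes of 0.36 and -0.19, were not called (edgeR adjusted p = 0.348 and 0.532). Gene counts do not separate membrane-bound Flt1 from its soluble form.

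Kdr (ENSMUSG00000062960, chromosome 5, 75932827 to 75978458, minus strand), which encodes VEGFR2, the main signalling receptor for VEGF-A, measured 19.1, 20.4, 31.5, 31.7 and 16.8 CPM in PoEMs of tumours 1, 2, 4, 5 and 6. In non-PoEMs it measured 16.8, 38.2, 32.6, 37.3 and 22.96 CPM. PoEMs were lower in 4 of 5 tumours, tumour 1 being the exception, and the groups overlapped. The log2 fold change, -0.30 ± 0.15 (SE, adjusted p = 0.185, edgeR), did not pass the test, and was -0.14 without tumour 2. The ratio of Flt1 to Kdr counts was 0.207 ± 0.0939 in PoEMs and 0.312 ± 0.0846 in non-PoEMs (SD, n = 5 each) and was lower in PoEMs of 5 of 5 tumours. This ratio was chosen after the values were seen and was not tested.

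Flt4 (ENSMUSG00000020357, chromosome 11, 49609263 to 49652739, plus strand), which encodes VEGFR3, had 28, 47, 26, 67 and 26 counts in PoEMs of tumours 1, 2, 4, 5 and 6, and 22, 42, 13, 43 and 44 counts in non-PoEMs. PoEMs were higher in CPM in 4 of 5 tumours and lower in tumour 6. The log2 fold change was 0.27 ± 0.21 (SE, edgeR adjusted p = 0.387), and it was 0.18 without tumour 4, 0.11 without tumour 5 and 0.51 without tumour 6.

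Because these receptors are endothelial genes, markers of endothelium were read in the same libraries. Of 15 blood endothelial markers 4 were tested, and 2 of them, Pecam1 and Vwf, were higher in PoEMs. Across all tested genes 13.8% were called higher. Pecam1 was not called without the block (edgeR adjusted p = 0.4515). The sum of the 15 markers was 88.7 to 251.5 CPM in PoEMs and 74.7 to 185.4 CPM in non-PoEMs. Most of it came from Pecam1, which leukocytes also express. Cdh5, which encodes VE-cadherin, averaged 4.72 ± 1.28 CPM in PoEMs and 5.04 ± 1.41 CPM in non-PoEMs (SD, n = 5 each, log2 fold change -0.09, edgeR adjusted p = 0.641). The 11 markers below the filter averaged at most 0.527 CPM in either group. Of the lymphatic markers, Ccl21a had 0 counts in all 10 libraries, and Mmrn1 had 2 counts in all PoEM libraries and 0 in all non-PoEM libraries. Prox1 had 15 counts in PoEMs and 8 in non-PoEMs, and Reln had 3 and 5. Lyve1, which macrophages also express, was the only 1 of the 5 lymphatic markers tested (151.7 ± 60.3 CPM in PoEMs and 128.2 ± 79.6 CPM in non-PoEMs, log2 fold change 0.38, edgeR adjusted p = 0.562).

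Of the neuropilin genes, Nrp2 rose in PoEMs and Nrp1 did not pass the test. Nrp2 (ENSMUSG00000025969, chromosome 1, 62703285 to 62818695, plus strand) measured 284.5, 262.3, 294.0, 332.6 and 362.0 CPM in PoEMs of tumours 1, 2, 4, 5 and 6, and 221.1, 193.7, 241.7, 273.6 and 294.0 CPM in non-PoEMs. The fractions had the same order of tumours, and PoEMs held 1.22 to 1.35 times the level of non-PoEMs of the same tumour. The log2 fold change was 0.33 ± 0.05 (SE, edgeR adjusted p = 9.84e-05), and the adjusted p was 0.0867 without the block. Homer3, Pld3 and Tex264 had the nearest profiles, at root mean square distances of 0.0758, 0.0808 and 0.0849 on the log2 scale, against a spread of Nrp2 about its own mean of 0.254.

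Nrp1 (ENSMUSG00000025810, chromosome 8, 128358604 to 128503363, plus strand) measured 240.3, 239.5, 247.4, 254.3 and 276.2 CPM in PoEMs of tumours 1, 2, 4, 5 and 6, and 254.9, 315.1, 429.9, 404.3 and 230.4 CPM in non-PoEMs. PoEMs varied little between tumours (251.6 ± 15.0 CPM, SD, n = 5), whereas non-PoEMs varied more (326.9 ± 88.4 CPM, SD, n = 5). PoEMs were lower in 4 tumours and higher in tumour 6, and the log2 fold change, -0.34 ± 0.18 (SE, adjusted p = 0.241, edgeR), did not pass the test. Without tumour 6 it was -0.49 (edgeR adjusted p = 0.0365). The ratio of Nrp2 to Nrp1 counts was 1.18, 1.09, 1.19, 1.31 and 1.31 in PoEMs, and 0.868, 0.615, 0.562, 0.677 and 1.28 in non-PoEMs, in the same order of tumours. It was higher in PoEMs of every tumour, least so in tumour 6. This ratio, too, was chosen after the values were seen and was not tested.

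**Figure D3:**
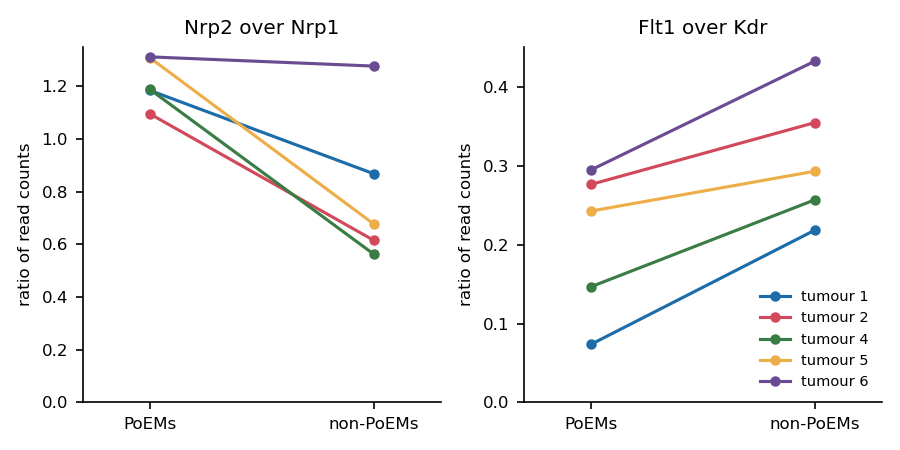
Ratio of read counts of Nrp2 to Nrp1 (left panel) and of Flt1 to Kdr (right panel) in PoEMs (left) and non-PoEMs (right), with a line per tumour. The Nrp2 to Nrp1 ratio lay between 1.09 and 1.31 in PoEMs and between 0.562 and 1.28 in non-PoEMs.

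**Figure D4:**
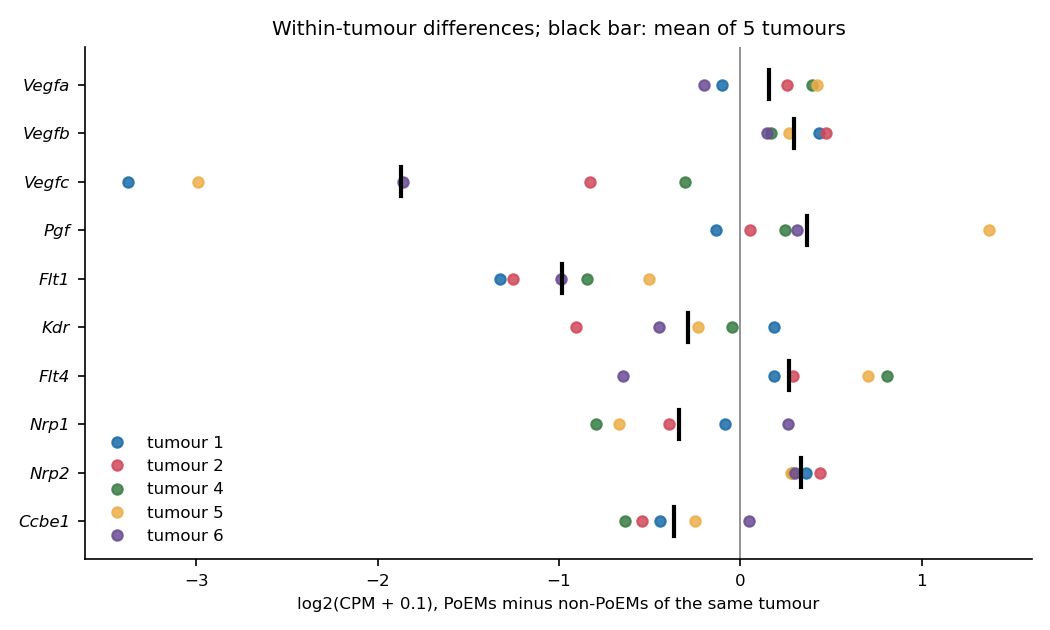
Difference in log2(CPM + 0.1), PoEMs minus non-PoEMs of the same tumour, with a point per tumour and a black bar at the mean of 5 tumours. The 5 points of Vegfb and Nrp2 lie above 0 and those of Vegfc and Flt1 below 0, and the points of the other 6 genes lie on both sides.

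Levels of different genes were compared as CPM per kb of exon. In PoEMs Vegfa came first at 176.5 ± 28.8, followed by Nrp2 at 25.9 ± 3.37, Nrp1 at 25.7 ± 1.54, Vegfb at 16.6 ± 1.29, Pgf at 11.95 ± 6.47 and Kdr at 2.65 ± 0.792 CPM per kb (SD, n = 5). Flt1 at 0.3602 ± 0.168, Flt4 at 0.344 ± 0.174, Ccbe1 at 0.248 ± 0.0748 and Vegfc at 0.0818 ± 0.0617 CPM per kb closed the order. The ranges of Nrp2 and Nrp1, of Vegfb and Pgf, and of Flt1, Flt4 and Ccbe1 as neighbours overlapped over the PoEM libraries, whereas the other neighbours did not overlap. In non-PoEMs Vegfa again came first at 159.8 ± 37.5 CPM per kb, and Nrp1 at 33.4 ± 9.03 stood ahead of Nrp2 at 20.7 ± 3.39 CPM per kb with overlapping ranges. Vegfc stood eighth there, at 0.379 ± 0.173 CPM per kb, and its range overlapped those of its neighbours Flt1 and Ccbe1.

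**Figure D5:**
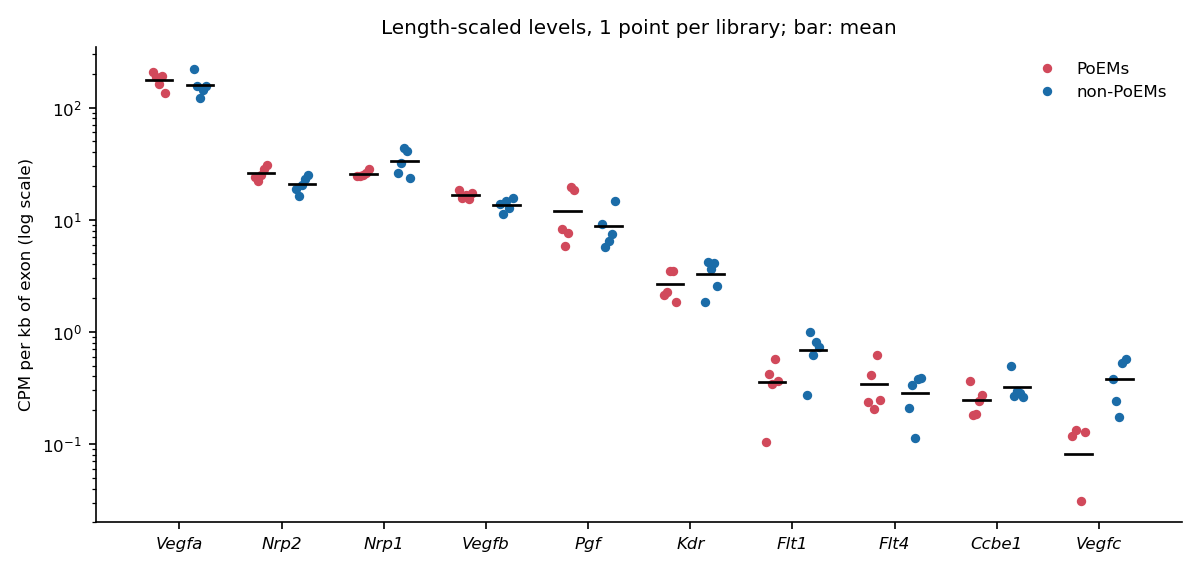
CPM per kb of exon on a log axis for each gene, with PoEMs at the left and non-PoEMs at the right of each pair, a point per library and a bar at the mean; the PoEM library of tumour 1 had no Vegfc count and is not drawn. Vegfa stood above all other genes in both groups, at 134.3 CPM per kb or more in PoEMs and 123.0 or more in non-PoEMs.

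Other genes of the pathway were read from lists. For comparison, 13.8% of all tested genes were called higher and 14.3% lower, and 13.6% in either direction without the block. In the list of HIF subunits, oxygen sensors and HIF-induced genes, to which Vegfa belongs in function, 9 of 16 genes rose and 2 fell in PoEMs, with a median log2 fold change of 0.47, and 9 rose and 1 fell without the block. Adm, which encodes adrenomedullin, averaged 15.3 ± 8.15 CPM in PoEMs and 1.92 ± 0.994 CPM in non-PoEMs (SD, n = 5 each, log2 fold change 2.99, edgeR adjusted p = 1.7e-09). Epas1, which encodes HIF-2 alpha, averaged 59.3 ± 21.3 CPM in PoEMs and 17.9 ± 6.99 CPM in non-PoEMs (log2 fold change 1.74, edgeR adjusted p = 4.05e-08). The oxygen-sensing hydroxylase genes Egln3 and Egln1 rose by 1.65 and 0.56 on the log2 scale (edgeR adjusted p = 4.62e-06 and 1.53e-06), beside the 0.16 of Vegfa. The genes that fell were Egln2, a further hydroxylase gene of this family, and Arnt, which encodes the partner of the HIF alpha subunits. They fell by 0.21 and 0.22 on the log2 scale (edgeR adjusted p = 0.0107 and 0.00179), and Egln2 was not called without the block (adjusted p = 0.155).

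Among class 3 semaphorins and the plexins that pair with neuropilins, 6 of 12 genes were tested, and 2 rose and 1 fell in PoEMs. The plexin genes Plxna1 and Plxna2 rose by 0.35 and 0.93 on the log2 scale (edgeR adjusted p = 0.000107 and 0.0298). Plxnd1 fell by 0.14 (adjusted p = 0.0363), a call not made without the block (adjusted p = 0.718), and Plxna4 had a log2 fold change of -0.40 (adjusted p = 0.123). Of the platelet-derived growth factor genes, relatives of the VEGF ligands, Pdgfa rose by 0.31 and Pdgfb fell by 0.18 on the log2 scale (edgeR adjusted p = 0.0129 and 0.0315, and 0.328 and 0.379 without the block). Pdgfc had a log2 fold change of 0.07 (adjusted p = 0.821).

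Of 28 genes that carry the VEGF receptor signal inside the cell, 25 were tested, and 4 rose and 6 fell in PoEMs, with a median log2 fold change of -0.06. Without the block 1 rose and 4 fell. Among those with the lowest p were Pxn, which encodes the focal adhesion protein paxillin, Mapk14, which encodes the stress kinase p38 alpha, and Mapk3, which encodes ERK1. Pxn and Mapk14 fell by 0.37 and 0.32 on the log2 scale and Mapk3 rose by 0.25 (edgeR adjusted p = 0.000316, 0.000718 and 0.000817). These genes serve many receptors besides those of VEGF.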

How the data were processed

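RNA of 10 libraries was pre-amplified with SMART-Seq, per the labels' protocols. The authors deposited raw read counts per gene, made with STAR 2.5.2b, featureCounts 1.5.3, cutadapt 1.15 and Bowtie2 2.3.3.1 among the tools named by the submitters' processing notes. The sources used here give no genome build, strand setting or treatment of multi-mapping reads. Counts are reads, not molecules, and do not separate isoforms. Groups and tumour numbers came from the labels. The tumour was a block because both fractions of a tumour carry its number in the labels; deviations of same-numbered libraries from their group means correlated at 0.237 to 0.499.

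The deposited counts went into edgeR 4.0.16 under R 4.3.3 (filterByExpr with minimum count 10 and minimum total 15, TMM scaling, glmQLFit with robust dispersions, glmQLFTest), which was tested on simulated data first. 13595 genes were tested and the common biological coefficient of variation was 7.55%. CPM are TMM-scaled. SE is the absolute log2 fold change divided by the square root of F, and adds nothing to the p-value. Vegfc, below the filter, was compared by exact permutation of signs over tumours on log2(CPM + 0.1). Levels per kb used merged exons of GENCODE M21 (GRCm38), matched by identifier, as were gene positions, given for identification only. Alternatives were the fit without the block, other scaling, no filter, DESeq2 1.42.0 and leaving out each tumour.

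The members, lists and tests were chosen with earlier results of these data known. Named were the members, up to 4 genes of each pathway list by lowest p (1 of them is not reported here), the 3 nearest profiles of each called member and Pdpn. Figf, Egln2, Arnt, Adamts3, Pcsk5 and the marker genes named singly were chosen after their values were seen.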

Additional observations from a re-analysis of the deposited data

Results flagged for a closer look

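In 22 sets of 5 libraries (each of the 10 genes and Figf, in each fraction), the gap between the highest or lowest library and the next was compared with the range of the set, a check that chance alone flags in about 1 of 20 sets. It singled out 2. Ccbe1 stood at 5.395 CPM in non-PoEMs of tumour 1, against 2.85 to 3.20 CPM in the other 4 non-PoEM libraries. PoEMs of tumour 1 also held the highest Ccbe1 value of their group, at 3.94 CPM. Figf stood at 0.2345 CPM in non-PoEMs of tumour 1, which is 3 counts, and PoEMs of tumour 1 held the highest value there too, at 1.12 CPM.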

How the results depend on the processing

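With the replicate block removed, so that libraries are not paired by tumour, 929 genes were called higher and 920 lower in PoEMs (1880 and 1950 with it), and 1846 of the 1849 calls were shared. Of the VEGF system genes, 0 were then called higher and 0 lower, Vegfb, Nrp2 and Flt1 having log2 fold changes of 0.29, 0.33 and -0.95. The DESeq2 test with the block called 1219 genes higher and 1445 lower, and called 3 of the 10 genes. With no filter on low counts 2 of the 10 were called lower, Vegfc joining Flt1. For Vegfc the mean difference of -1.87 passed an exact unpaired permutation test (two-sided p = 0.00794, the smallest that 5 against 5 libraries allow). Groups without overlap, as reported above for Vegfc, always give that p. The value for Vegfc with no filter was -2.10. Leaving out both libraries of 1 tumour gave 1360 to 1925 genes higher and 1380 to 2016 lower, 2 to 3 of the members higher and 1 to 2 lower, and -2.26 to -1.49 for Vegfc, where 4 pairs allow no p below 0.125. The tumour that added calls was tumour 6, without which Vegfa and Nrp1 were called (0.24 and -0.49). Of 90 alternative values of the 9 tested genes, 85 kept their direction and their side of the threshold, 3 lost and 2 gained a call, and 0 reversed. Counts under 100 per group (Vegfc, Figf) limit what can be said of the VEGFR3 ligands.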
